A study of Mus musculus with 6 samples.

Results

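Expression of 10 genes of fatty acid synthesis and desaturation was followed in RNA sequencing of mouse pancreatic islets, the clusters of hormone-secreting cells that include the insulin-producing beta cells. They are Acly, Acaca, Acacb, Fasn, Elovl6, Elovl5, Scd1, Scd2, Fads1 and Fads2, and they were taken by symbol: all 10 were found among the 19940 genes of the authors' deposited table. Islets of pregnant C57BL6/J mice at gestational day 14.5 (3 samples) were set against islets of nonpregnant C57BL6/J mice, labelled as littermates (3 samples). The islets were picked by hand after enzyme digestion of the pancreas, and the labels name no transgene, drug or diet in either group. Each gene has 1 mean read count per group, so no spread between samples can be shown and the p-values are those of the authors. Whole islets hold several cell types, and in such bulk RNA fewer cells of a type and less RNA per cell cannot be told apart.

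Fatty acids are built in the cytosol from acetyl-CoA, which ATP citrate lyase (Acly) cuts from citrate. Acetyl-CoA carboxylases turn acetyl-CoA into malonyl-CoA, fatty acid synthase joins these units into palmitate, elongases lengthen the chain and desaturases put in double bonds. In beta cells malonyl-CoA also links glucose metabolism to fatty acid oxidation, and many of these genes are known targets of the SREBP transcription factors.

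Among the 10 genes, 3 of the 4 desaturases changed, not all in the same direction, and none of the 6 enzymes that build and lengthen the chain passed the test. Scd1 and Scd2, which encode stearoyl-CoA desaturases that make monounsaturated fatty acids, fell in pregnant islets, to 0.34 and 0.48 of the nonpregnant level in the authors' deposited table. Fads1, whose desaturase acts on polyunsaturated fatty acids at the step that makes arachidonic acid, rose 1.75-fold in that table. With an adjusted p under 0.05, 1 member was thus higher and 2 were lower, in a table where 7.57% of all genes were higher, 4.15% lower and 11.7% called in either direction. The median log2 ratio of the 10 members was -0.13, beside -0.01 for the 15682 genes that averaged at least 10 mean reads, and 9 of the 10 ratios were below 0, as were 8158 of those 15682.

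**Figure D1:**
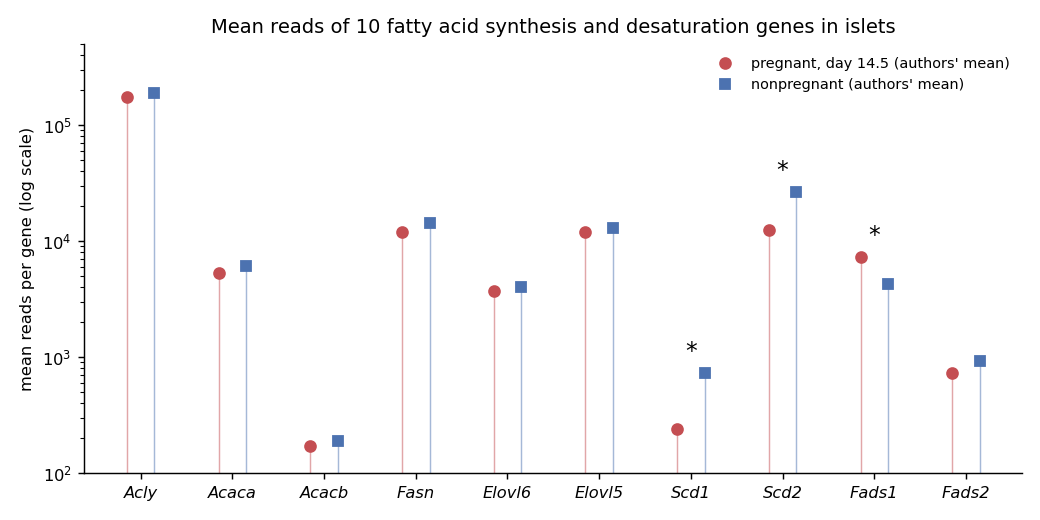
Mean reads per gene (log scale) of the 10 genes in pregnant islets (circles, left) and nonpregnant islets (squares, right), 1 authors' mean per group with no error; asterisks mark an adjusted p under 0.05. Scd1 and Scd2 lie lower and Fads1 higher in pregnant islets, and the other 7 pairs of points lie close together.

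Scd2 carried most of the stearoyl-CoA desaturase signal. In the authors' deposited table Scd2 had a mean of 12427 reads in pregnant islets, against 26377 in nonpregnant islets (log2 ratio -1.05, adjusted p = 9.77e-14). Of the 827 genes that fell, Scd2 had the 11th smallest p and the 68th largest fall by log2 ratio. By the difference in mean reads, 44 of all 19940 genes lost more. Scd1 was far scarcer, with a mean of 237 reads in pregnant and 727 in nonpregnant islets in the authors' deposited table (log2 ratio -1.58, adjusted p = 2.26e-06). Its fall by log2 ratio was the 14th largest among the 827, and its p was the 66th smallest. By the difference in mean reads, 2225 of all 19940 genes lost more than Scd1.

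The other stearoyl-CoA desaturase genes had still fewer mean reads than Scd1 in both groups. Scd3 had 117 mean reads in each group in the authors' deposited table (log2 ratio 0.04, adjusted p = 1). Scd4 had 10 mean reads in pregnant and 26 in nonpregnant islets (log2 ratio -1.26, adjusted p = 0.171 in the authors' deposited table). Per length, as reads per kilobase of annotated exon and per 1000000 mean reads, the level of Scd2 was 25.9 in pregnant and 57.1 in nonpregnant islets, and that of Scd1 was 0.553 and 1.76 in the same order. Scd2 thus made up 96.4% of the family's summed level per length in pregnant islets and 96.2% in nonpregnant islets. The sum itself was 26.9 in pregnant and 59.4 in nonpregnant islets.

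The 4 Scd genes lie together on chromosome 19 of GRCm38. Scd2 (ENSMUSG00000025203) lies on the plus strand at 44293674 to 44306864, and Scd1 (ENSMUSG00000037071) on the minus strand at 44394455 to 44407879, 87.6 kb further along. Scd4 lies between them at 44333092 to 44346743 and Scd3 before them at 44203269 to 44244016, both on the plus strand. Their coding sequences are alike, most closely those of Scd1, Scd2 and Scd3. Scd1 and Scd2 share 962 of 1065 aligned coding bases (90.3%) and Scd1 and Scd3 share 974 of 1065 (91.5%). Scd4 is less close, sharing 84.6% with Scd1, 83.8% with Scd2 and 84.6% with Scd3. The longest stretch without a difference between the Scd1 and Scd2 transcripts was 147 bases, and between those of Scd1 and Scd3 it was 185 bases. A read inside such a stretch cannot be placed by its bases, so the values of the scarcer copies are uncertain, Scd1 among them.

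A stretch of the coding sequences of the Scd genes, from the GENCODE M21 transcripts, is shown 5′ to 3′. The capitals mark the codons of the first histidine box, one of the conserved motifs whose histidines bind the iron atoms of these desaturases.
Scd1: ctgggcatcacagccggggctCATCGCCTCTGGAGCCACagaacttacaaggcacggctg
Scd2: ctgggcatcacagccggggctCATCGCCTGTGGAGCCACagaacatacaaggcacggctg
Scd3: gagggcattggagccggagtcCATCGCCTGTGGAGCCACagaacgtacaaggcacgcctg
Scd4: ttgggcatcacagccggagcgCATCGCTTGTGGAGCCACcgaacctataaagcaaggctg

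Over these 60 bases Scd2 differs from Scd1 at 2 positions, Scd3 at 11 and Scd4 at 10. Within this stretch Scd3 is thus no closer to Scd1 than Scd4 is, unlike over the whole coding sequences. In Scd1 the stretch covers coding bases 325 to 384, counted from the first base of the start codon, and in Scd2 bases 334 to 393. The box spans residues 116 to 121 of the 355 in the Scd1 protein and residues 119 to 124 of the 358 in Scd2.

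Of the polyunsaturated fatty acid desaturases, Fads1 rose and Fads2 did not pass. Fads1 had a mean of 7255 reads in pregnant and 4247 in nonpregnant islets in the authors' deposited table (log2 ratio 0.81, adjusted p = 2.46e-12). Among the 1510 genes that rose it had the 194th smallest p, and the 608th largest log2 ratio. Fads2, whose desaturase takes the first step of the same pathway, had 727 mean reads in pregnant and 926 in nonpregnant islets and did not pass (log2 ratio -0.31, p = 0.0179, adjusted p = 0.112 in the authors' deposited table). Per length, Fads1 stood at 6.83 times the level of Fads2 in pregnant islets and at 3.14 times in nonpregnant islets. Whether the ratios of Fads1 and Fads2 differ from each other beyond the spread between samples was not tested, since that needs values per sample.

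Both genes belong to another cluster on chromosome 19. Fads1 (ENSMUSG00000010663) lies on the plus strand at 10182888 to 10196877 and Fads2 (ENSMUSG00000024665) on the minus strand at 10062765 to 10101746, so their starts face each other across 81.1 kb. Fads3, next to the end of Fads2, had 146 mean reads in pregnant and 109 in nonpregnant islets in the authors' deposited table (log2 ratio 0.45, adjusted p = 0.262). On the other side of Fads1, at 2.25 kb, lies Fen1, a flap endonuclease gene of DNA replication. Fen1 rose in pregnant islets, with 1156 mean reads against 651 in nonpregnant islets (log2 ratio 0.86, adjusted p = 3.53e-07 in the authors' deposited table). The annotated spans of Fads1 and Fen1 do not overlap. Further on the same side, within 50 kb, Tmem258, Myrf and Dagla did not pass, and the authors' deposited table lists them at log2 ratios of 0.27, 0.10 and 0.28 (adjusted p = 0.0917, 0.795 and 0.171). Fads6, a related gene elsewhere, had 5019 mean reads in pregnant and 4904 in nonpregnant islets in the authors' deposited table (log2 ratio 0.07, adjusted p = 0.852). Fads1 and Fads2 share 66.7% of aligned coding bases and no identical stretch over 17 bases, so their reads are easier to tell apart than those of the Scd genes.

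Because Scd2, the most abundant stearoyl-CoA desaturase gene, fell and Fads1 rose, their ratio necessarily differed between the group means. Per length, Scd2 stood at 1.51 times Fads1 in pregnant islets and at 5.47 times Fads1 in nonpregnant islets. With 1 mean behind each ratio, no error can be attached to them.

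**Figure D2:**
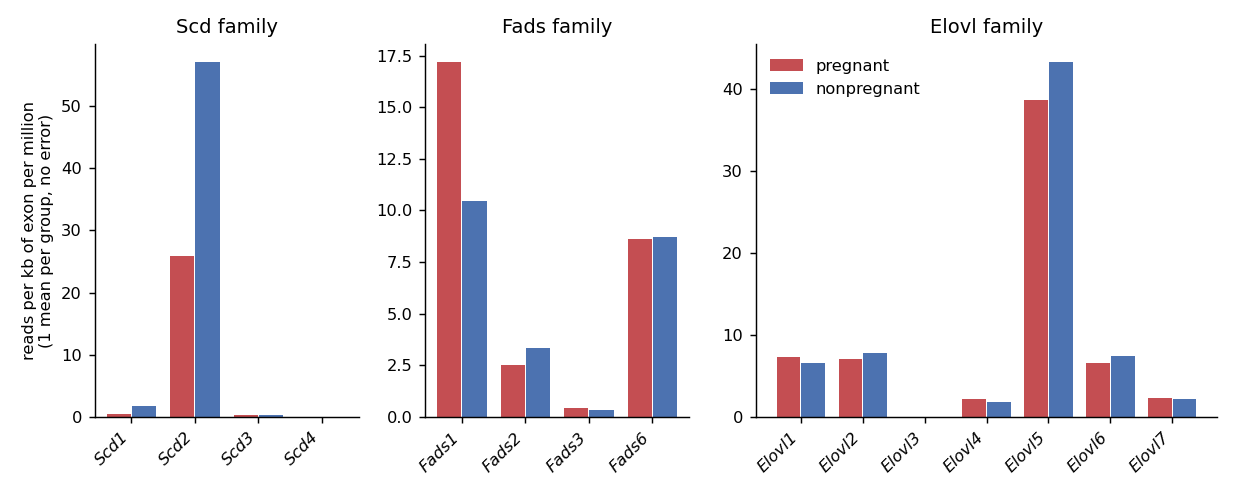
Reads per kilobase of annotated exon and per 1000000 mean reads for the Scd, Fads and Elovl genes, pregnant bars left of nonpregnant bars, 1 mean per group with no error; each panel has its own axis from 0. Scd2 is lower and Fads1 higher in pregnant islets, while Elovl5 leads its family at 38.6 in pregnant and 43.3 in nonpregnant islets.

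The enzymes upstream of the desaturases gave small ratios below 1, none of which passed. Acly had by far the most reads of the 10, with a mean of 173027 in pregnant and 187209 in nonpregnant islets in the authors' deposited table (log2 ratio -0.08, adjusted p = 0.796). Per length its level was 374 in pregnant and 419.7 in nonpregnant islets, above 99.6% and 99.7% of the 15384 genes with at least 10 mean reads and an annotated length. It made up 77.6% of the summed level per length of the 10 genes in pregnant islets and 74.6% in nonpregnant islets. Acly (ENSMUSG00000020917) spans 100476353 to 100528000 of chromosome 11, on the minus strand.

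Of the acetyl-CoA carboxylases, Acaca encodes the cytosolic form that feeds synthesis and Acacb the form at the mitochondrial surface that regulates fatty acid oxidation. Acaca had 5340 mean reads in pregnant and 6111 in nonpregnant islets (log2 ratio -0.16, adjusted p = 0.414 in the authors' deposited table). Acacb had 171 mean reads in pregnant and 188 in nonpregnant islets in the authors' deposited table (log2 ratio -0.10, adjusted p = 0.958). Per length, Acaca made up 94.6% of the carboxylase pair in pregnant islets and 94.8% in nonpregnant islets, so the split was nearly equal in both groups. Acaca (ENSMUSG00000020532) lies on the plus strand of chromosome 11 at 84129672 to 84401651 and Acacb (ENSMUSG00000042010) on the plus strand of chromosome 5 at 114146535 to 114250761. Both spans overlap a gene on the opposite strand, and the sources used here do not say whether the counting used strand.

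Fasn, the fatty acid synthase gene, had 12018 mean reads in pregnant and 14271 in nonpregnant islets in the authors' deposited table (log2 ratio -0.21, adjusted p = 0.376). Its level per length was 12.5 in pregnant and 15.4 in nonpregnant islets, and that of Acly was 29.9 and 27.2 times as high in the same order. Fasn (ENSMUSG00000025153) spans 120805846 to 120824547 of chromosome 11, also on the minus strand, with no overlapping gene.

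The elongases had nearly the same ratio. Elovl6, which lengthens palmitate to stearate, the substrate of the Scd enzymes, had 3721 mean reads in pregnant and 4021 in nonpregnant islets (log2 ratio -0.08, adjusted p = 0.831 in the authors' deposited table). Elovl5, which lengthens polyunsaturated chains, had 11921 mean reads in pregnant and 12881 in nonpregnant islets in the authors' deposited table (log2 ratio -0.08, adjusted p = 0.813). Elovl5 (ENSMUSG00000032349) lies on the plus strand of chromosome 9 at 77917364 to 77984519 and Elovl6 (ENSMUSG00000041220) on the plus strand of chromosome 3 at 129532355 to 129638495. The span of Elovl6 overlaps an antisense gene.

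None of the 7 Elovl genes passed, and 2 of them, Elovl1 and Elovl4, had an unadjusted p under 0.05 in the authors' deposited table. Elovl1 had 1757 mean reads in pregnant and 1506 in nonpregnant islets, and Elovl2 had 2464 and 2602 in the same order, in the authors' deposited table. For Elovl4 the table gave 587 in pregnant and 475 in nonpregnant islets, and for Elovl7 it gave 809 and 737 in the same order. Elovl3 was listed at 1 mean read in each group.

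**Figure D3:**
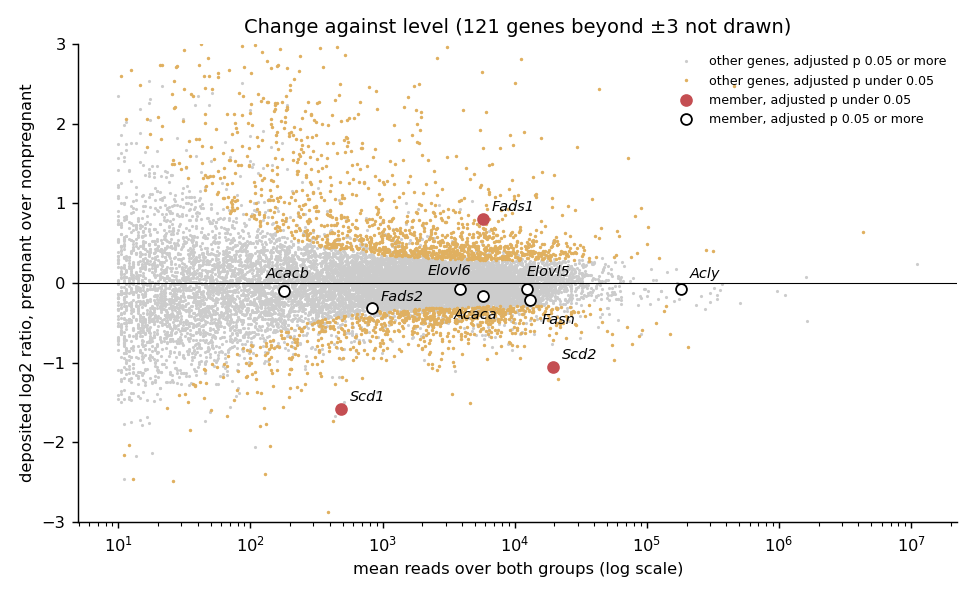
Deposited log2 ratio, pregnant over nonpregnant, against mean reads over both groups (log scale) for the 15682 genes with at least 10 mean reads; filled red points are members with an adjusted p under 0.05, open points the other members, and 121 genes beyond ±3 are not drawn. Scd1 and Scd2 lie at the lower edge of genes with similar reads, Fads1 lies within the band of called genes above 0, and the other 7 members lie between -0.31 and -0.08.

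Genes around this pathway were counted from lists chosen with earlier results of these data known. The counts stand beside 7.57% of all genes higher and 4.15% lower, and no list was tested against these shares. Of 18 regulators of lipogenic transcription, 0 rose and 2 fell (median log2 ratio -0.02). The 2 were Srebf1 and Srebf2, which encode the SREBP factors of fatty acid and cholesterol genes. Srebf1 had 10014 mean reads in pregnant and 13000 in nonpregnant islets (log2 ratio -0.34, adjusted p = 0.0187 in the authors' deposited table). For Srebf2 the authors' deposited table gave 11084 in pregnant and 14502 in nonpregnant islets (log2 ratio -0.35, adjusted p = 0.00846).

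Other regulators did not pass. Mlxipl, the gene of the glucose-responsive factor ChREBP, had 23463 mean reads in pregnant and 38739 in nonpregnant islets (log2 ratio -0.69, adjusted p = 0.129 in the authors' deposited table). Insig1, whose protein holds SREBP precursors in the ER, had 8027 mean reads in pregnant and 11285 in nonpregnant islets in the authors' deposited table (log2 ratio -0.45, adjusted p = 0.175). Insig2, with the same role, and the SREBP escort gene Scap stood at log2 ratios of 0.15 and 0.00, as listed in the authors' deposited table. The LXR receptor genes Nr1h2 and Nr1h3 had log2 ratios of -0.11 and 0.07, and the lipogenic gene Thrsp had -0.30, in the authors' deposited table.

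Supply of carbon and reducing power was represented by 15 genes, of which 2 rose and 0 fell (median log2 ratio 0.15). Acss2, which makes acetyl-CoA from acetate in the cytosol, had 7285 mean reads in pregnant and 4244 in nonpregnant islets in the authors' deposited table (log2 ratio 0.81, adjusted p = 1.52e-12). Pcx, the pyruvate carboxylase gene that refills citrate precursors, rose by a log2 ratio of 0.32 (adjusted p = 0.0175 in the authors' deposited table). Slc25a1, the mitochondrial citrate carrier, and Me1, the NADPH-making malic enzyme, did not pass: the authors' deposited table lists log2 ratios of -0.09 and 0.26, with adjusted p-values of 0.791 and 0.116.

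Of 11 genes that control acetyl-CoA carboxylase or malonyl-CoA, 2 rose and 1 fell (median log2 ratio 0.02). In the authors' deposited table Mlycd, which removes malonyl-CoA, rose by a log2 ratio of 0.34, and Prkab2, a subunit of the kinase AMPK that inhibits the carboxylases, fell by 0.61 on the log2 scale (adjusted p = 0.0194 and 6.17e-06). The other riser, Brca1, binds the inactive carboxylase but is best known for DNA repair, and its log2 ratio was 1.56 in the authors' deposited table (adjusted p = 1.01e-16). In the list of 18 other elongation and desaturation genes 0 rose and 0 fell (median log2 ratio -0.03), with 5 at an unadjusted p under 0.05 in the authors' deposited table. All 8 measured genes of mitochondrial fatty acid synthesis, a separate pathway that supplies lipoic acid, were without a call (median log2 ratio 0.11). Of these 8 genes, 1 had an unadjusted p under 0.05 in the authors' deposited table. Both counts at an unadjusted p stand beside 4418 of all 19940 genes.

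Fatty acid handling outside synthesis was counted in the same way, beside 11.7% of all genes called in either direction. Of 15 acyl-CoA synthetase and uptake genes 3 rose and 0 fell (median log2 ratio 0.06): the synthetases Acsl1 and Acsl5 and the fatty acid binding protein gene Fabp5, which the authors' deposited table lists at log2 ratios of 0.47, 0.35 and 1.07 (adjusted p = 0.00069, 0.0102 and 1.76e-10). Lpl, the lipoprotein lipase gene and the list's most read, had 13896 mean reads in pregnant and 24317 in nonpregnant islets and lay just outside the threshold (log2 ratio -0.77, adjusted p = 0.0502 in the authors' deposited table). With adjustment over genes that averaged at least 10 mean reads, 1 gene of this list was lower. Of 18 glycerolipid and lipid droplet genes 0 rose and 1 fell (median log2 ratio 0.01). That gene was the phosphatidate phosphatase gene Lpin2, which fell by 0.46 on the log2 scale in the authors' deposited table (adjusted p = 0.000807).

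Mitochondrial fatty acid oxidation, which breaks down what the pathway builds, had 5 genes higher and 0 lower of 20 (median log2 ratio 0.20). In the authors' deposited table Cpt1a, the malonyl-CoA-sensitive entry enzyme, and the thiolase gene Acaa2 both rose by a log2 ratio of 0.58 (adjusted p = 2.25e-06 and 1.69e-05). Cpt1b, the muscle form of that entry enzyme, had the list's largest log2 ratio by size, in the other direction, with 35 mean reads in pregnant and 71 in nonpregnant islets (log2 ratio -0.96, adjusted p = 0.0561 in the authors' deposited table). It passed as lower with adjustment over genes that averaged at least 10 mean reads. Cholesterol synthesis and uptake, the other branch under SREBP, had 3 genes higher and 10 lower of 22 (median log2 ratio -0.45). The authors' deposited table shows that Dhcr7, a late enzyme of that branch, rose by a log2 ratio of 1.60 (adjusted p = 9.75e-27). Whether these lists differ from one another was not tested.

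**Figure D4:**
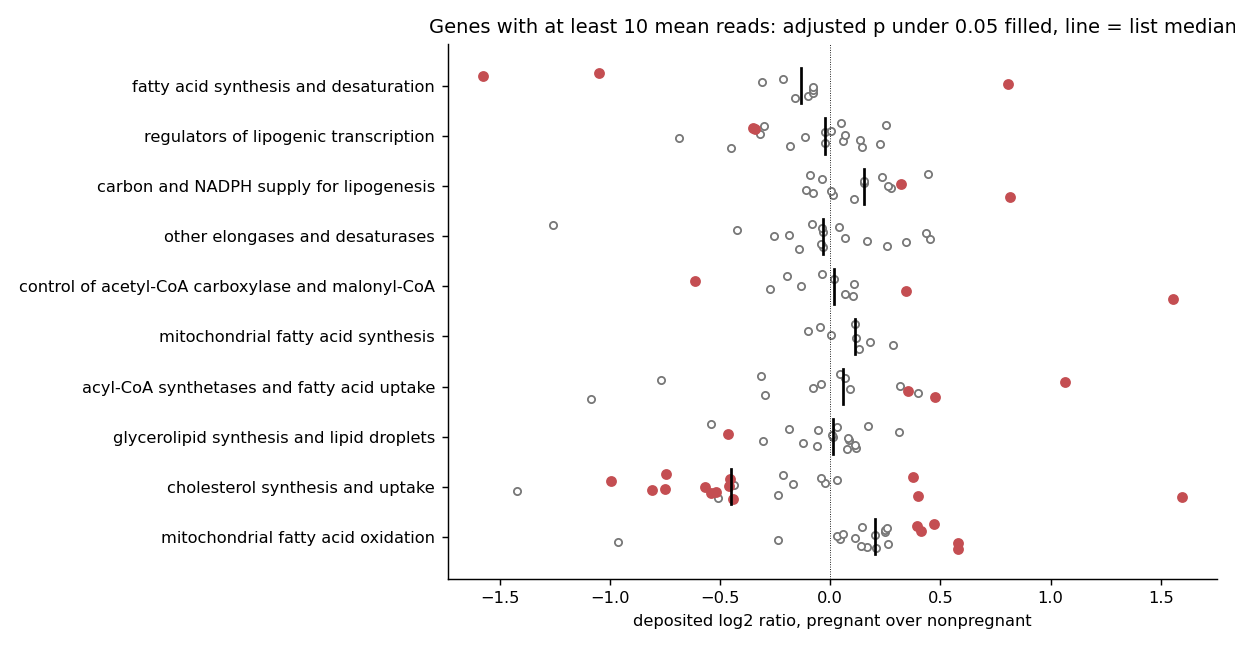
Deposited log2 ratio, pregnant over nonpregnant, of genes with at least 10 mean reads in the 10 members (top) and 9 other lists; filled points have an adjusted p under 0.05 and the line is the list's median. The members' called points lie at -1.58, -1.05 and 0.81, and the medians run from -0.45 for cholesterol genes to 0.20 for fatty acid oxidation.

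Promoters were available for 7 of the 10 members in the RefSeq table (GRCm38.p6, 250 bases before to 50 after the start), without Scd1, Scd2 and Fads1. A search of both strands for the sterol regulatory element TCACNCCAC matched 0 of these 7, against 1.24% of 32851 promoters. The NF-Y box CCAAT, which often stands beside such elements, was found in Acacb, Acly, Elovl5 and Fasn, against 37.4% of all promoters, and Elovl5 and Fasn each held it at 2 places. The E-box CACGTG was found in Elovl5, against 7.15%, and the GC box GGGCGG in Acly and Fads2, against 35.7%. In these 7 promoters no match of one motif overlapped a match of another, and a match of letters is not by itself a binding site.

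Summed over genes, mean reads came to 87654449 for pregnant and 84493872 for nonpregnant islets. Markers of other cell types also changed, in a table with 7.57% of all genes higher and 4.15% lower. All 14 acinar markers were listed, 13 of them higher and 0 lower, with a summed share of mean reads of 1.32% in pregnant and 0.0948% in nonpregnant islets, and Amy2a5 was listed at 0 in nonpregnant islets. Of 7 alpha cell markers 0 were higher and 3 lower, with summed shares of 1.62% in pregnant and 2.41% in nonpregnant islets. Beta cell markers had 2 higher and 1 lower of 10, with shares of 22.2% in pregnant and 18.9% in nonpregnant islets. The part of these shifts in the values of the Scd and Fads genes was not tested. Scaled to total mean reads, the log2 ratios of Scd1, Scd2 and Fads1 were -1.67, -1.14 and 0.72. With the acinar markers left out of that total, they were -1.65, -1.12 and 0.74. Such a step changes the scaling only and takes no acinar RNA out of the counts of these genes. Adipocyte markers, of a cell type rich in these enzymes, were near 0: Adipoq had 4 mean reads in pregnant and 0 in nonpregnant islets, and Plin1 had 1 and 0 in the same order, in the authors' deposited table. Of the 7 adipocyte markers listed 0 were called, with 2 at an unadjusted p under 0.05 in the authors' deposited table, and they summed to 295 mean reads in pregnant and 183 in nonpregnant islets, most of them from Fabp4. The remaining marker lists held few calls. They were 1 higher of 7 for macrophages, 1 higher of 5 for duct, and 0 for endothelial, stellate and Schwann cells. In the Schwann list 1 gene had an unadjusted p under 0.05 in the authors' deposited table. Over all 19940 genes, 4418 had an unadjusted p under 0.05.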

How the data were processed

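RNA of hand-picked islets was prepared with a TruSeq transcriptome kit, and a RIN above 7 was required, per the labels' protocols. The submitters' processing notes name the build GRCm38 and the tools HTSeq 0.5.3p3, Bowtie, TopHat and TopHat2 2.0.12. The authors deposited 1 table with 1 mean read count (a signal per gene) in each group, as the file headers say, without values of single samples; scaling and strand use are not given in the sources used here. The authors also deposited a fold change (a linear ratio, pregnant over nonpregnant), its log2 value, a p-value and an adjusted p-value (FDR) across all genes. The tool and the spread behind those p-values are not given in the sources used here, nor whether each sample came from 1 animal; the design text mentions 5 animals in each group.

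Repeated lines (19963 lines, 19940 genes) were counted once. A gene was called at a deposited adjusted p under 0.05. Recomputed Benjamini-Hochberg values, by a routine tested on simulated data, differed from the deposited ones by at most 0.00203. The deposited log2 ratio exceeds that of the mean reads by a median of 0.04. The ratios of low genes look as if a pseudocount of 1 had been added, which was not tested. If so, their ratios understate changes. Levels per length used exon unions from GENCODE M21 (19256 genes matched). Coding sequences were aligned with Biopython 1.88. The remaining work used Python 3.11.15, pandas 2.3.3, numpy 2.4.6 and matplotlib 3.10.9. The members and lists were chosen with earlier results of these data known. The planned rule named all members, the Scd and Elovl genes, 11 regulators and supply genes, up to 4 called genes per list and up to 3 markers per cell type; Fen1, Tmem258, Myrf, Dagla, Fads3, Fads6, Lpl, Cpt1b, Adipoq, Plin1 and Amy2a5 were added after their values were seen. The alternatives were other thresholds, adjustments, scalings, pseudocounts and lengths.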

Additional observations from a re-analysis of the deposited data

How the results depend on the processing

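The calls of Scd1 and Scd2 as lower and Fads1 as higher were the same genes at an adjusted p under 0.01, under 0.10, and with adjustment across the 15682 genes that averaged at least 10 mean reads. No other member was called under these 3 settings. Scd1, Scd2 and Fads1 kept their direction under each of 5 other scalings or pseudocounts, with log2 ratios from -1.67 to -1.57, -1.14 to -1.04 and 0.72 to 0.82, and 9 of 10 members stayed below 0. The members' median log2 ratio was -0.17 for unscaled mean reads and with a pseudocount of 0, -0.22 scaled to total mean reads, -0.20 when that total left out acinar markers, -0.12 scaled to the median ratio, and -0.10 without Scd1. Scaling to total mean reads placed the median of all genes at -0.10, against -0.01 as deposited. In the other lists together 15 of 145 genes were higher and 14 lower, beside 7.57% and 4.15% of all genes. Of the 14 lower genes, 10 were from the cholesterol list. The counts for the 145 genes were 12 and 8 at an adjusted p under 0.01, and 22 and 17 under 0.10. They were 16 and 16 with adjustment over genes that averaged at least 10 mean reads. Under 0.01 the lower count fell to 5 for cholesterol genes, against 10, and to 1 for lipogenic regulators, against 2, and the higher count to 1, against 2, for both carbon supply and carboxylase control. Under 0.10 the higher count was 4 for carbon supply, against 2, and 5 for fatty acid uptake, against 3, and the other elongases and desaturases had 1 higher and 1 lower, against 0 and 0. Fatty acid uptake and oxidation each had 1 lower gene, against 0, both under 0.10 and with the adjustment over fewer genes. With the longest transcript as length, levels per length were 1.00 to 1.79 times as high and 0 of the 10 members changed rank. No paired analysis was possible because the deposited table holds group means without values per sample; leaving out single replicates was not run for the same reason. The spread between samples therefore limits every value here in a way that cannot be measured.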
